A study of Zea mays with 8 samples.

Results

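The response of the leaf base to water shortage was measured in the maize inbred line B73, by RNA sequencing of polyadenylated RNA from the basal meristem of the 3 youngest leaves. Plants grew in a greenhouse to the onset of silk emergence, were hand pollinated, and were sampled 24 hours later, at 1 day after pollination. Control plants were well watered, and for drought plants irrigation was withheld 2 to 3 days before pollination. The comparison holds 4 of the 8 libraries in the series, chosen by their tissue label: control 1 and control 2 against drought 1 and drought 2. All 4 come from one inbred genotype, with no allele or agent other than the watering. The sample labels call the pair in each condition biological replicates, while the series text counts 1 replicate for each condition. Neither says whether a library came from 1 plant or a pool, so the p-values cover only the spread seen between the libraries, which may be technical. Levels are in FPKM, a fragment count divided by gene model length and by the library's mapped fragments, as the authors deposited them for 25873 gene IDs. Read counts are not used here, so depth and counting error are unknown.

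The base of a growing grass leaf holds the dividing and elongating cells from which the blade and sheath are built, and leaf growth there slows early when water runs short. Abscisic acid and jasmonate are 2 hormones tied to the response. Jasmonate is made from plastid lipids by lipoxygenases, allene oxide synthases and cyclases, and oxophytodienoate reductases. Its signal removes JAZ repressors, which belong to the TIFY family, and genes for JAZ proteins are themselves switched on by the signal.

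The control libraries differed from each other about as much as control 1 differed from drought. Of 22418 genes that averaged 1 FPKM or more over the 4 libraries, 6.38% lay at least 2-fold apart between the controls on the log2(FPKM + 1) scale. That share was 6.04% between control 1 and drought 1 and 8.02% between control 1 and drought 2. For control 2 it was 11.9% against drought 1 and 14.9% against drought 2, and between the drought libraries 1.26%. Control 2 lay below control 1 in 1185 of the genes that far apart and above it in 245. The summed FPKM ran from 783683 in control 2 to 843595 in drought 2. List medians and the calls of named genes below are therefore given against each control where the choice of control changes them. The plot of gene pairs shows this asymmetry.

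**Figure D1:**
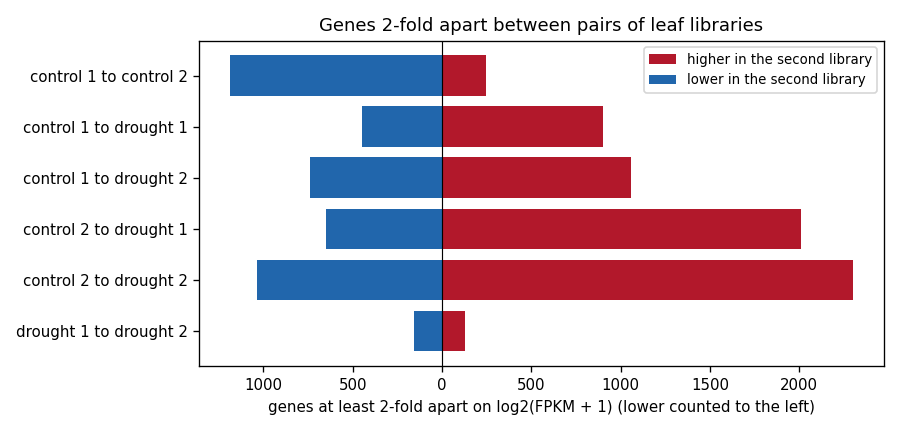
Number of genes at least 2-fold apart between each pair of leaf libraries on log2(FPKM + 1), counted to the right where the second library is higher and to the left where it is lower. From control 1 to control 2, 1185 genes were lower and 245 higher, and the drought libraries were closest, with 128 higher and 155 lower.

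Leaf-base markers were present at low to moderate levels. The list of KNOX and leaf patterning genes, which set out meristem and leaf domains, had 11 tested members, with summed levels of 139.8 and 125 FPKM in the controls and 129.6 and 117 FPKM under drought. Among them knox6 read 30.9, 28.6, 26.7 and 24.2 FPKM and YAB11 29.5, 22.7, 27.2 and 28.8 FPKM in control 1, control 2, drought 1 and drought 2. None of the 11 was called against both controls, and 1 was called higher against control 2 alone. Genes of photosynthesis, which mark greening cells, summed to 25400 and 32204 FPKM in the controls and 30846 and 35188 FPKM under drought. The list of MADS-box genes, picked as floral by symbol alone, had 9 tested members. It was led by tunicate1 at 119, 137, 128 and 110.3 FPKM and MADS76 at 103, 113, 139 and 158 FPKM. None was called in the fit that holds both controls together. MADS67, at 12.1 and 4.46 FPKM and then 42.2 and 43.8 FPKM, lay above both controls but did not pass the limma test against both together (adjusted p = 0.0848). No symbol of the pollen or endosperm storage lists was matched in the leaf table. In bulk tissue, fewer cells of a type and less RNA per cell cannot be told apart.

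More genes were called higher than lower under drought. At a Benjamini-Hochberg adjusted p under 0.05 in limma, 527 genes were higher under drought, 2.35% of those tested, and 203 were lower, 0.906%. An unadjusted p under 0.05 was reached by 5020 genes. Of the calls, 80 higher and 109 lower had an FPKM of 0 in the 2 libraries of a condition and are described separately. The other 447 higher genes had a median log2 difference of 1.59 with a range of 0.78 to 5.63, and the other 94 lower genes a median of -1.35. Against control 1 those medians were 1.55 and -1.30, and against control 2 they were 1.61 and -1.38. The median over all tested genes was -0.06. Both drought libraries lay above both controls in 23.5% of all tested genes and below both in 35.7%, which is the background for the counts of members by order below. For counts of called members the background is 2.35% higher and 0.906% lower. A single call in a list is not read as a trait of the list.

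The number of calls depended on which library was left out. With control 1 as the only control, 234 genes were higher (1.04%) and 141 lower (0.629%). With control 2 as the only control, 1509 were higher (6.73%) and 479 lower (2.14%). These fits share both drought libraries. A lone control has no spread of its own, so the spread in these fits comes from the drought libraries, which lay closest together. Calls against a single control therefore leave out the difference between the controls. Of the 730 called genes, 211 higher and 119 lower were also called against control 1 alone, and 484 higher and 190 lower against control 2 alone. Without drought 1 or without drought 2 no gene was called in limma, with 2526 and 1800 genes at an unadjusted p under 0.05 and smallest adjusted p of 0.0671 and 0.0666. This holds for every call below and is not repeated.

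Among genes with a symbol, several of the largest rises were in transcription factors. The largest rise among named genes not listed at 0 was in bHLH108 (GRMZM2G119823), of the basic helix-loop-helix family, at 2.14 and 0.962 FPKM in the controls and 90.9 and 164 FPKM under drought, a log2 difference of 5.63 ± 0.38 (SE of the limma fit, n = 2 per condition; adjusted p = 0.00723). bHLH116 (GRMZM2G042895), of the same family, was at 43.7 and 20.9 FPKM in the controls and reached 1052 and 1453 FPKM, a difference of 5.30 ± 0.40 (adjusted p = 0.00972). In both genes the groups were far apart, and control 2 was the lower control and drought 2 the higher drought library. LOB15 (GRMZM2G060544), a LOB-domain factor, went from 1.63 and 1.13 FPKM to 58.3 and 75.2 FPKM, a difference of 4.83 ± 0.20 (adjusted p = 0.00161). These 3 genes were also called against either control alone. The helix-loop-helix list had 2 members called higher and 1 lower of 31 tested, with a median of 0.06 (0.01 against control 1 and 0.19 against control 2).

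Both GRMZM2G336533 and GRMZM2G018553 carry the name NAC1, of the plant NAC family of stress and development factors. The first was at 6.29 and 1.68 FPKM in the controls and 48.1 and 65.2 FPKM under drought, and the second at 5.94 and 1.74 FPKM and 45.8 and 62.9 FPKM. Both IDs match 1 reference gene and their levels track each other, so they may share reads and cannot be counted as 2 genes. The name also belongs to GRMZM2G014653 and GRMZM2G347043, which were not called (log2 differences of -0.10 and -0.34, adjusted p = 0.759 and 0.265). The log2 differences of GRMZM2G336533 and GRMZM2G018553 were 3.69 ± 0.52 and 3.65 ± 0.49 (adjusted p = 0.0462 and 0.0409). For these IDs they were 2.97 and 2.98 against control 1 and 4.41 and 4.32 against control 2. The other members among 17 tested NAC genes were not called, and the list median was -0.10 (-0.08 against control 1 and -0.07 against control 2).

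The AP2/ERF family holds the DREB factors of dehydration and cold responses and the ethylene response factors. It had 6 of 28 tested members called higher and none lower, beside 2.35% and 0.906% of all tested genes. Of the 28, 15 lay above both controls and 3 below both, and the list median was 0.33 (0.23 against control 1 and 0.42 against control 2), beside -0.06 for all genes. DBP4 (GRMZM2G380377), named as a DRE-binding protein, rose from 2.16 and 3.3 FPKM to 35.7 and 46.6 FPKM, a log2 difference of 3.50 ± 0.23 (adjusted p = 0.00646). EREB27 rose from 1.64 and 1.03 FPKM to 14.2 and 11.4 FPKM, a difference of 2.57 ± 0.21. EREB65 was at 3.23 and 3.31 FPKM and then 19.8 and 14.2 FPKM, and EREB98 at 21.2 and 20.2 FPKM and then 48.5 and 54.9 FPKM. In all 4 the drought libraries lay above both controls by more than the controls lay apart. EREB171 and EREB139, the remaining called members, were listed at 0 in both controls. Against control 1 alone DBP4, EREB27 and EREB171 kept their calls, and EREB65 (adjusted p = 0.075), EREB98 (0.0745) and EREB139 (0.146) lost them; EREB139 lost it against control 2 alone too (0.0679). EREB68, at 0.0307 and 1.83 FPKM and then 9.27 and 9.61 FPKM, was not called in the limma fit that holds both controls together (adjusted p = 0.0938). Its log2 difference was 3.34 against control 1 and 1.88 against control 2. EREB92, at 25.7 and 30.7 FPKM and then 45.7 and 51.7 FPKM, did not pass the test against both (0.0931).

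**Figure D2:**
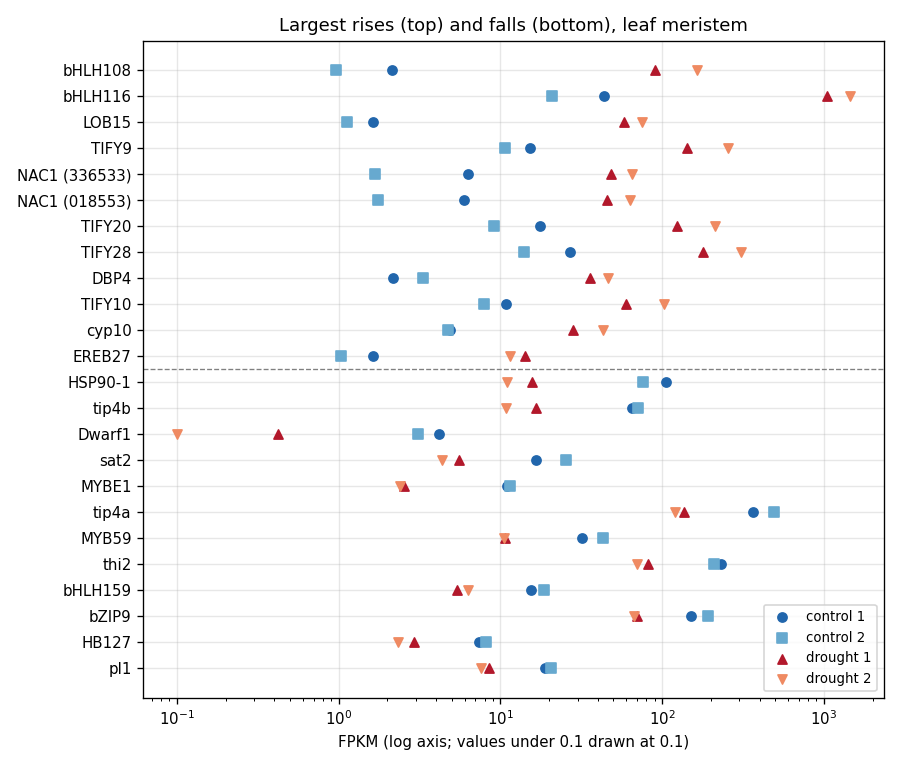
FPKM in each leaf library, on a log axis, for the 12 largest rises (top) and 12 largest falls (bottom) among named called genes not at 0 in a whole condition; each point is 1 library. In every gene the drought libraries lie beyond both controls, from bHLH108 at 90.9 and 164 FPKM against 2.14 and 0.962 FPKM to pl1 at 8.46 and 7.64 FPKM against 18.9 and 20.5 FPKM.

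MYB factors moved in both directions, with 2 higher and 3 lower of 32 and a median of -0.20 (-0.18 against control 1 and -0.22 against control 2). MYB139 went from 3.33 and 2.7 FPKM to 7.58 and 7.16 FPKM (log2 difference 1.06 ± 0.15, adjusted p = 0.0481), and MYBR95 was listed at 0 in both controls. MYBE1 fell from 11 and 11.5 FPKM to 2.52 and 2.4 FPKM, a difference of -1.83 ± 0.13. MYB59 (GRMZM2G130149, a name shared with GRMZM2G093789) fell from 31.9 and 43.1 FPKM to 10.7 and 10.5 FPKM, a difference of -1.71 ± 0.18. Both kept their call against control 1 alone. pl1, the purple plant regulator of anthocyanin synthesis, fell from 18.9 and 20.5 FPKM to 8.46 and 7.64 FPKM (adjusted p = 0.0236), a call lost against control 1 alone (adjusted p = 0.0809). MYB139 and MYBR95 lost it as well (0.103 and 0.0979). The bZIP and HD-ZIP list had 1 higher and 3 lower of 58, with a median of -0.11 (-0.14 and -0.10). Its called members were bZIP76, higher at 8.56 and 11.4 FPKM against 3.18 and 2.6 FPKM, bZIP9, lower at 69.8 and 66.9 FPKM against 151 and 193 FPKM, HB127, lower at 2.93 and 2.34 FPKM against 7.41 and 8.11 FPKM, and bZIP83, listed at 0 under drought. Against control 1 alone only bZIP83 of these 4 was called. No WRKY gene was called among 19 tested, of which 9 lay above both controls and 8 below both, while 2 were called higher against control 2 alone.

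Jasmonate genes lay mostly above both controls. Of 44 tested, 5 were called higher, none lower, 36 lay above both controls and 3 below both. The list median was a log2 difference of 0.92, made of 0.57 against control 1 and 1.23 against control 2. All 5 calls were in the TIFY family, which holds the JAZ repressors, and 20 of its 21 tested members lay above both controls, and its median was 1.39 (0.88 against control 1 and 1.92 against control 2). The family's summed level was 1266 and 961 FPKM in the controls and 2525 and 3451 FPKM under drought.

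TIFY9 (GRMZM2G145412) rose most, from 15.3 and 10.7 FPKM to 142 and 256 FPKM, a log2 difference of 3.80 ± 0.35 (adjusted p = 0.016). TIFY20 rose from 17.5 and 9.11 FPKM to 124 and 212 FPKM (3.58 ± 0.41), and TIFY28 from 26.8 and 13.9 FPKM to 178 and 308 FPKM (3.53 ± 0.42). TIFY10 was at 10.8 and 7.9 FPKM and then 60.1 and 103 FPKM, and TIFY4, at the highest level of the 5, at 165 and 131 FPKM and then 471 and 657 FPKM. In each of them drought 2 was the highest library and control 2 the lowest. Against control 1 alone no TIFY gene was called, the adjusted p of these 5 running from 0.0718 to 0.11, and against control 2 alone 11 were. Members of similar size but wider spread did not pass the test: JAZ9 (2.68 and 0 FPKM, then 13 and 17.9 FPKM; adjusted p = 0.11), TIFY1 (4.33 and 0.393, then 11.9 and 19 FPKM; 0.158) and TIFY25 (119.7 and 68.6, then 291 and 415 FPKM; 0.0769). TIFY18 was the single member below both controls, at 7.06 and 6.53 FPKM against 9.16 and 9.21 FPKM.

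None of the enzymes of jasmonate synthesis was called in the fit with both controls. For the allene oxide synthases the median log2 difference was 0.62 against control 1 and 1.90 against control 2. Among 11 lipoxygenases 9 lay above both controls, with a median log2 difference of 0.50 against control 1 and 1.34 against control 2. lox10, the most abundant, read 2599 and 1779 FPKM in the controls and 3194 and 4253 FPKM under drought (adjusted p = 0.257). ts1, the tasselseed lipoxygenase, was at 12.8 and 10.6 FPKM and then 29.7 and 49.6 FPKM (adjusted p = 0.0708), and lox4 at 13.6 and 8.2 FPKM and then 30.7 and 33.1 FPKM (0.0694). lox1 depended on the control chosen: control 1 was at 362 FPKM, within the drought values of 295 and 460.2 FPKM, and control 2 at 13.6 FPKM. All 4 allene oxide synthases and both cyclases lay above both controls, among them aos1 at 78.6 and 21.4 FPKM and then 119.9 and 136 FPKM, and aoc2 at 62.1 and 52.8 FPKM and then 100.3 and 115 FPKM. Of 6 oxophytodienoate reductases 1 lay above both controls and 2 below, the latter being opr1 and opr2, which carry identical values and cannot be told apart.

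**Figure D3:**
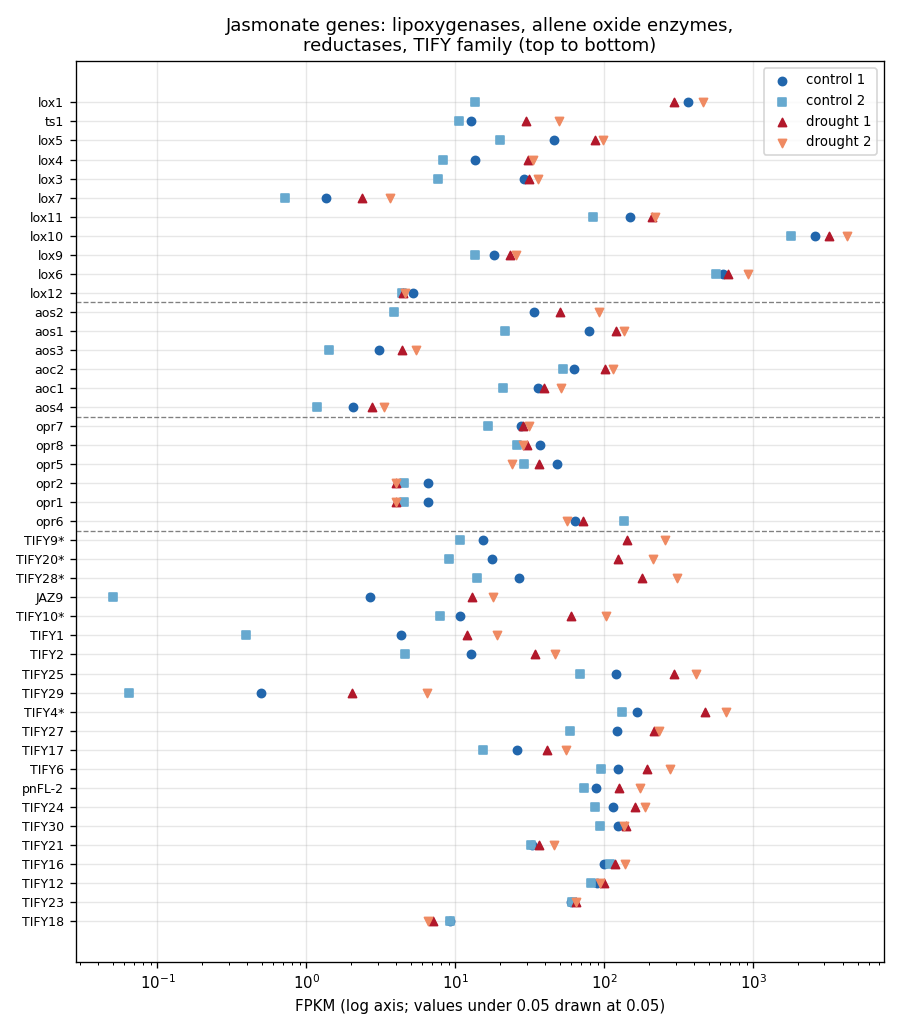
FPKM in each leaf library, on a log axis, for the 44 tested jasmonate genes in 4 groups from top to bottom: lipoxygenases, allene oxide synthases and cyclases, oxophytodienoate reductases, and the TIFY family; an asterisk marks a call. The drought libraries lie above both controls in 20 of 21 TIFY genes, and control 2 stands far below the other libraries in some genes, as for lox1 at 13.6 FPKM.

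Of the abscisic acid genes 1 passed the test. None of 20 tested members was called higher, 1 was called lower, 4 lay above both controls and 7 below, and the median was -0.16 (-0.06 against control 1 and -0.10 against control 2). The lower one was PYL2, a member of the receptor family for the hormone, at 14.2 and 14.4 FPKM and then 6.44 and 5.51 FPKM (-1.14 ± 0.13, adjusted p = 0.0299; 0.0969 against control 1 alone). SnRK2.6, a kinase of the signal, was at 34.6, 32.3, 35 and 35.8 FPKM in control 1, control 2, drought 1 and drought 2, and vp14, which makes the precursor of the hormone, was at 1.8 and 2.26 FPKM and then 3.16 and 6.01 FPKM (adjusted p = 0.212). Type 2C protein phosphatases, a family that includes the negative regulators of the same pathway, had 1 of 23 called higher while 14 lay above both controls and 3 below, with a median of 0.31 (0.24 and 0.36). PP2C18 went from 12 and 7.26 FPKM to 35 and 32.5 FPKM (1.74 ± 0.25, adjusted p = 0.0477; 0.0523 against control 1 alone). PP2C13, at 1.6 and 0.377 FPKM and then 5.76 and 9.99 FPKM, and PP2C4, at 21.7 and 22.7 FPKM and then 34.1 FPKM in both, did not pass the test (adjusted p = 0.0878 and 0.0859).

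Protective proteins and sugars were represented by few named genes. dehydrin3, of the desiccation-protective dehydrins, rose from 162 and 184 FPKM to 396 and 401 FPKM (adjusted p = 0.0332; 0.0714 against control 1 alone). dhn1 was at 17.2 and 4.98 FPKM and then 47.4 and 129 FPKM, with no overlap, and did not pass the test (adjusted p = 0.141). The symbol TPS is used for trehalose phosphate synthases and for terpene synthases, and the names alone do not tell them apart: 3 of 10 tested genes so named were called higher, none lower, and 6 lay above both controls. TPS9 (GRMZM2G122231) went from 30.1 and 43.9 FPKM to 156 and 131 FPKM (1.95 ± 0.23), TPS2 from 12 and 10.7 FPKM to 41.8 and 47.6 FPKM (1.89 ± 0.14), and TPS7 from 31 and 38.4 FPKM to 91.4 and 77.3 FPKM (1.26 ± 0.17). TPS2 carries the same values as a second ID, and the name TPS9 belongs to other IDs too. Against control 1 alone TPS9 and TPS2 kept their calls and TPS7 did not (adjusted p = 0.0739).

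Further single members rose. Igl, the lyase that releases indole, was at 39 and 28.7 FPKM and then 149.5 and 213 FPKM (2.38 ± 0.25, adjusted p = 0.0233), the only called gene of 10 in the benzoxazinoid list. The ethylene receptor gene etr2 went from 6.73 and 5.87 FPKM to 13 and 14.9 FPKM (1.03 ± 0.15, adjusted p = 0.0461), in a list of 6 where 4 lay above both controls. The metallothionein-like mtl2 was at 11 and 16.5 FPKM and then 62 and 45.7 FPKM. SGR1, the stay-green gene of chlorophyll breakdown, is matched by 2 IDs at nearly equal levels, and GRMZM2G103881 went from 3.76 and 4.23 FPKM to 11.3 and 11.4 FPKM. Both are in the list of autophagy, chlorophyll breakdown and cell death genes, where 15 of 25 lay below both controls, 3 above, and the median was -0.21. The calcium-dependent kinase CPK39 is likewise matched by 2 IDs, and GRMZM2G157068 went from 10 and 9.44 FPKM to 31.6 and 29.1 FPKM (1.54 ± 0.12, adjusted p = 0.0108). The list of calcium and MAP kinase genes otherwise leaned the other way, with 14 of 26 below both controls, 7 above and a median of -0.25. ARGOS5, of a family of organ size regulators, was at 4.83 and 3.38 FPKM and then 12.3 and 11.5 FPKM. cyp10 completed the 12 largest rises, at 4.85 and 4.73 FPKM and then 28.2 and 42.9 FPKM (2.63 ± 0.23). Of these genes CPK39 alone was also called against control 1 alone (adjusted p = 0.0491 for that ID); the others ranged there from 0.0565 for SGR1 to 0.123 for etr2. Without a symbol, GRMZM2G052908 rose from 0.619 and 0.247 FPKM to 75.1 and 32.8 FPKM (adjusted p = 0.0126; 0.0697 against control 1 alone), and GRMZM2G091201 from 2.11 and 1.42 FPKM to 102 and 76.4 FPKM (0.00194; 0.0132).

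Among genes with a symbol, the largest falls included a heat shock protein, vacuolar water channels and a gibberellin enzyme. HSP90-1 (GRMZM2G024668), a chaperone, fell from 106 and 75.8 FPKM to 15.7 and 11 FPKM, a log2 difference of -2.68 ± 0.25 (adjusted p = 0.0169), and was also called against control 1 alone. It was the only called member of 22 heat shock genes, whose median was -0.02 (0.04 against control 1 and 0.16 against control 2). The tonoplast aquaporin genes tip4b and tip4a fell, tip4b from 65 and 71.3 FPKM to 16.6 and 10.8 FPKM (-2.26 ± 0.23) and tip4a from 365 and 489 FPKM to 136 and 120.3 FPKM (-1.72 ± 0.20). Neither kept its call against control 1 alone (adjusted p = 0.0896 and 0.064). Of 24 aquaporins 2 were called lower, none higher, 11 lay below both controls and 1 above. The 11 include pip2e and pip2f, which carry identical values and cannot be told apart. The list median was -0.24 (-0.18 against control 1 and -0.24 against control 2). Aquaporins tip2a (82.5 and 217, then 71.3 and 47.9 FPKM) and pip2-5 (26.1 and 74, then 23.9 and 16.4 FPKM) differed more between the controls than between control 1 and drought.

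Dwarf1 (GRMZM2G036340), which encodes an enzyme of the last steps to active gibberellin, went from 4.18 and 3.09 FPKM to 0.424 and 0 FPKM (-1.95 ± 0.26, adjusted p = 0.042; 0.0852 against control 1 alone and 0.052 against control 2 alone). It was the 1 call among 6 gibberellin genes, of which 4 lay below both controls and none above. The early pathway gene an1 was at 45 and 63.8 FPKM and then 28.5 and 20 FPKM, and d3 at 46.2 and 31.1 FPKM and then 24.5 and 21.1 FPKM, without passing the test (adjusted p = 0.123 and 0.19). sat2, a serine acetyltransferase of cysteine synthesis, fell from 16.5 and 25.4 FPKM to 5.53 and 4.35 FPKM, and thi2, of thiamine synthesis, from 231 and 209 FPKM to 81.4 and 70 FPKM. bHLH159 fell from 15.5 and 18.6 FPKM to 5.39 and 6.35 FPKM, and D53, whose rice counterpart represses strigolactone signalling, from 36.4 and 38.5 FPKM to 17.3 and 14.7 FPKM. The controls were close to each other in thi2, bHLH159 and D53 and farther apart in sat2. Against control 1 alone the adjusted p was 0.0773 for sat2, 0.0603 for thi2, 0.0831 for bHLH159 and 0.0965 for D53. Without a symbol, GRMZM2G061439 fell from 511 and 285 FPKM to 20.5 and 8.48 FPKM (adjusted p = 0.0233; 0.0663 against control 1 alone), and GRMZM2G130728 from 16.2 and 20.6 FPKM to 3.09 and 1.14 FPKM (0.0392; 0.136 against control 1 alone and 0.0534 against control 2 alone).

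Histone, cell wall and cytoskeleton genes, which serve the dividing and elongating cells of a leaf base, gave a different answer with each control. Histone genes had a median log2 difference of -0.07 against control 1 and 0.99 against control 2, and 8 of 14 were at least 2-fold lower in control 2 than in control 1. his2a1 was at 53.6 and 12.6 FPKM in the controls and 33.8 and 51.6 FPKM under drought, so that control 2 alone stood apart. Expansins and cell wall synthesis genes had medians of -0.18 and 0.83, with 11 of 29 at least 2-fold lower in control 2. cesa7, of cellulose synthesis, was at 160.1 and 35.1 FPKM and then 127 and 157 FPKM, and expA3, a wall-loosening expansin, at 25.3 and 1.44 FPKM and then 23.4 and 21.1 FPKM. Kinesins and tubulins had medians of -0.16 and 0.56. In the fit with both controls, the only calls in these 3 lists were genes listed at 0 in a condition, CesA-1 and kin1. Cell cycle genes had medians of -0.13 against control 1 and -0.14 against control 2, and DNA replication genes -0.40 and -0.20. Over all tested genes the medians were -0.10 and -0.02, so the lists and the background had the same sign with either control. Cell cycle, DNA replication and translation factor genes had none called of 6, 7 and 7, and ribosomal protein genes had 1 of 32, again listed at 0.

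The surface and pigment lists shifted furthest between the controls. Lipid transfer and wax genes had medians of 0.03 against control 1 and 1.98 against control 2, with 5 of 6 members at least 2-fold lower in control 2. CER1 (GRMZM2G066578), named for wax synthesis, was at 40.8 and 1.04 FPKM and then 34.9 and 52.8 FPKM, and the lipid transfer gene plt2 at 1157 and 331 FPKM and then 1043 and 1330 FPKM. Flavonoid genes had medians of -0.15 and 1.48, with 7 of 8 lower in control 2 by that margin. The chalcone synthase gene c2 was at 177 and 69.4 FPKM and then 157 and 138 FPKM. f3h took opposite signs, at 61.1 and 6.89 FPKM and then 22.1 and 17.1 FPKM, a log2 difference of -1.60 against control 1 alone and 1.37 against control 2 alone (adjusted p = 0.0499 for the latter). Benzoxazinoid genes had medians of -0.24 and 0.61. No member of the wax or flavonoid lists was called in the comparison with both controls or against control 1 alone, whereas against control 2 alone 2 and 6 were. What set control 2 apart was not tested.

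Photosynthesis genes ran the other way between the controls, with a median log2 difference of 0.31 against control 1 and 0.00 against control 2, none called of 27, and 12 above both controls. me3, the malic enzyme of the maize carbon shuttle, was at 571 and 1331 FPKM in the controls and 627 and 657 FPKM under drought, and rca1, Rubisco activase, at 543 and 1113 FPKM and then 596 and 531 FPKM. Light-harvesting and photoprotection genes lay above both controls without passing the test, as psbs1 at 525 and 509 FPKM and then 792 and 1031 FPKM (adjusted p = 0.148) and lhcb6 at 786 and 759 FPKM and then 1124 and 1273 FPKM (0.177).

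**Figure D4:**
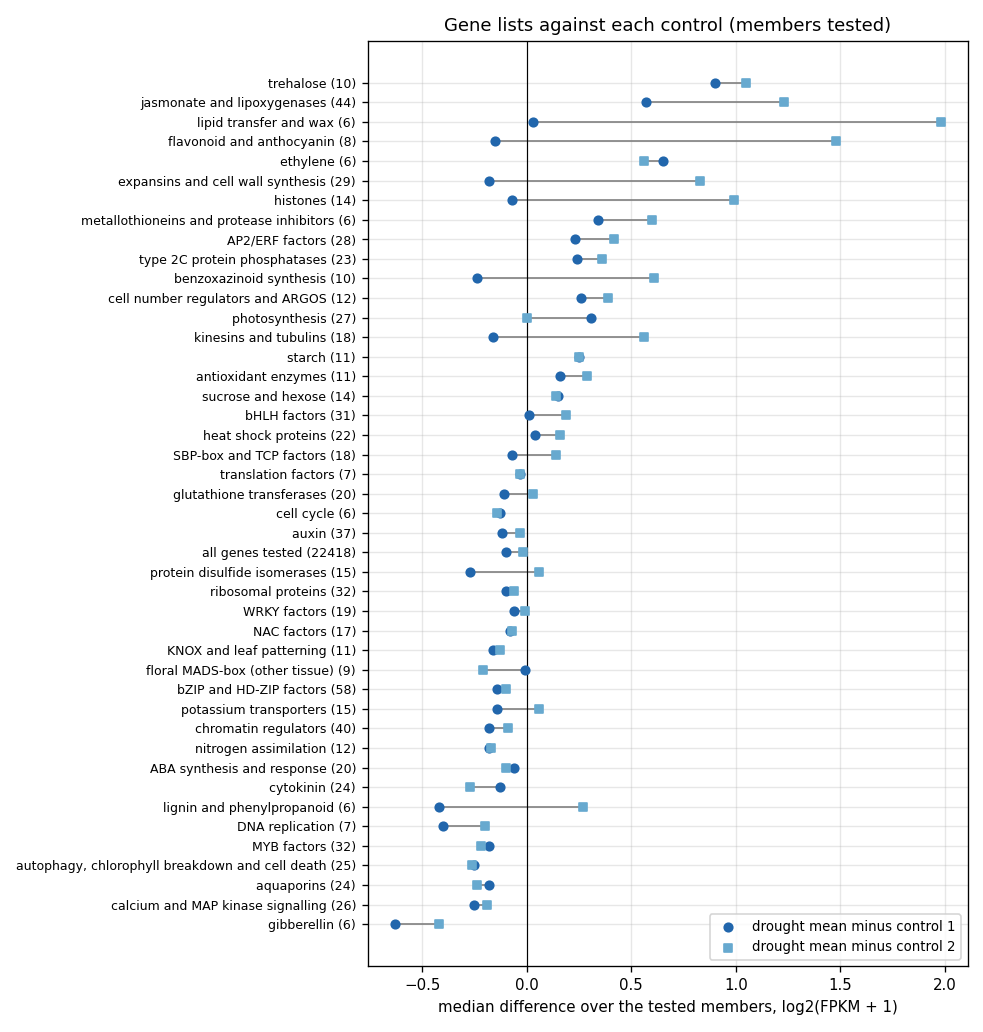
Median log2(FPKM + 1) difference of the tested members of each gene list with at least 5 of them, as the drought mean minus control 1 (circle) and minus control 2 (square), with the number of members in parentheses. The trehalose and ethylene lists sit close together on both, at 0.90 and 1.05 for trehalose, while lipid transfer and wax runs from 0.03 to 1.98. The trehalose list holds genes named TPS, a symbol also used for terpene synthases.

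Some genes had no expression value above 0 in either library of one condition and clear values in both of the other. Of 84 such genes at 0 in both controls 80 were called, and of 118 at 0 under drought 109 were called. Genes that all dividing or transcribing cells use are among them, so a 0 may be a missing estimate, and only the listed values are given. The alkaline galactosidase gene AGA1 stood at 222 and 264 FPKM under drought after 0 in each control, and the auxin-binding protein gene abp1 at 156 and 168 FPKM after 0. Ots1c was listed at 40.8 and 38.3 FPKM under drought, EREB171 at 36.9 and 29.6 FPKM and the cellulose synthase gene CesA-1 at 31.1 and 35.1 FPKM, each at 0 in both controls. In the other direction the kinesin gene kin1 was listed at 2163 and 287 FPKM in the controls, the ribosomal protein gene arpp1a at 133 and 116 FPKM and the pyruvate dehydrogenase gene pdh2 at 113 and 87.7 FPKM, each at 0 under drought. The splicing factor gene RS2Z37B, at 42.4 and 47.9 FPKM, and bZIP83, at 28.1 and 31.8 FPKM, were at 0 under drought as well. The TATA-binding protein gene tbp2, used in all transcription, was listed at 0 under drought after control values of 18.3 and 16.3 FPKM. Their fits have little spread to draw on, since equal zeros add none. With all 202 such genes left out, 311 genes were called higher and 57 lower among the rest, fewer than the 447 and 94 called with them in the fit. The smallest limma adjusted p was then 0.0273, so smaller values quoted for other genes hold only with the genes at 0 in the fit. Of 62 called genes followed singly and not at 0 in a condition, 44 kept their call in that fit and 18 lost it.

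The ovary of the same study, with 2 well watered and 2 drought libraries, had 5614 genes called higher (23.6%) and 7004 lower (29.5%). Whether a change differed between tissues was tested with limma on the 8 libraries together, subtracting each gene's leaf change from its ovary change. It was called for 47.8% of 20252 genes expressed in both, and for 476 of 599 genes called in the leaf (79.5%); leaf calls need a large leaf change, so the last share is not independent of the first. Of 438 genes higher in the droughted leaf, 139 were called higher in the ovary, 109 lower and 190 neither. Of 161 lower in the leaf, 43 were called higher in the ovary, 41 lower and 77 neither. Among the TIFY genes raised in the leaf, TIFY9 was low in the ovary, at 2.19 and 0.182 FPKM in controls and 0.75 and 0.934 FPKM under drought. TIFY4 changed by 2.06 in the ovary and 1.91 in the leaf, a difference of 0.15 ± 0.59 (SE), and TPS2 by 1.92 and 1.89, a difference of 0.04 ± 0.23, neither called different. PP2C4 was called higher in the ovary, by 3.19 against 0.60 in the leaf, a difference of 2.60 ± 0.16.

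**Figure D5:**
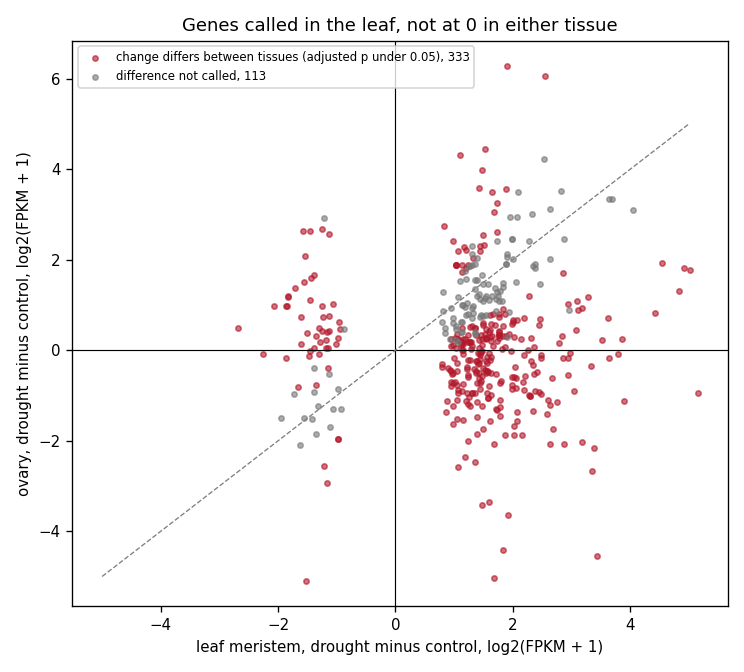
Log2(FPKM + 1) change under drought in leaf meristem (horizontal) and in ovary (vertical) for 446 genes called in the leaf and not at 0 in a whole condition of either tissue; the dashed line marks equal change. Each point is 1 gene, dark red where the tissue difference was called (333 genes), and the points spread above and below 0 in the ovary on both sides of the leaf axis.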

How the data were processed

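Polyadenylated RNA was sequenced from leaf meristem and ovary. Cufflinks 1.0.2, TopHat 1.2.0 and CASAVA 1.8 are named in the submitters' processing notes. The deposited values are FPKM from the authors, in 1 table per tissue; their genome build is not given in the sources used here. Depth per library is unknown. Names came from the synonym column of RefSeq's table for Zm-B73-REFERENCE-NAM-5.0: 16109 of 25873 leaf IDs matched and 2185 had a usable name.

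In R 4.3.3 with limma 3.58.1, log2(FPKM + 1) of genes averaging 1 FPKM or more was fitted (lmFit, eBayes with trend), 2 libraries against 2, with Benjamini-Hochberg adjustment over all tested genes. Fold changes on this scale understate low genes. The fit was tested on simulated data. Genes named are the 12 largest named rises and falls with both drought libraries beyond both controls, 5 at 0 each way, up to 3 of each list with at least 3 calls, the 5 largest tissue differences each way and 2 IDs with no symbol each way; all others were picked after their values were seen. The members and lists were chosen with earlier results of these data known, and 7 of 48 lists were added later. All alternatives are in the closing section. IDs with identical values in all 4 libraries (1126 tested, 48 called) cannot be told apart. A further marker gene is not reported here.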

Additional observations from a re-analysis of the deposited data

Results flagged for a closer look

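The drought change differed between leaf and ovary for 476 genes called in the leaf, by limma's test of the difference over 8 libraries (adjusted p under 0.05). Among leaf-called genes with a symbol, those with the largest differences, given as ovary change minus leaf change on the log2(FPKM + 1) scale, follow; values for genes listed at 0 in a leaf condition depend on the pseudocount.

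Among genes at 0 in the droughted leaf, the difference was 5.17 for bZIP83, 5.08 for arpp1a, 3.99 for pdh2 and 3.85 for MRP2. In the ovary bZIP83 was at 18.3 and 18.5 FPKM in the controls and 22.6 and 20.7 FPKM under drought, while arpp1a was at 198 and 193 FPKM and then 55 and 49.6 FPKM. Among genes at 0 in the leaf controls it was -8.23 for abp1, -7.21 for DWF1, -6.87 for CesA-1 and -5.54 for mad2. All 4 were present in the ovary controls, abp1 at 201 and 196 FPKM and mad2, of the spindle checkpoint, at 22.7 and 17.8 FPKM.

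The metallothionein-like gene mtl2 rose in both tissues, more in the ovary, by 4.38 ± 0.37 (SE; adjusted p = 0.000185): the ovary went from 2.62 and 4.31 FPKM to 331 and 350.5 FPKM. EREB27 rose in the leaf and was listed at 0 in the droughted ovary after 4.84 and 7.37 FPKM in the controls, a difference of -5.38.

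Among named genes at 0 in neither tissue, a choice made after the data were seen, those that fell in the leaf gave 3.17 for HSP90-1, 3.08 for MYB59, 3.03 for MYBE1, 2.85 for sat2 and -3.56 for thi2. MYBE1 rose in the ovary, from 13 and 12.1 FPKM to 30.3 and 29.9 FPKM, and thi2 fell there from 65 and 74.3 FPKM to 1.99 and 0.436 FPKM, further than in the leaf. Those that rose in the leaf gave -4.69 for cyp10, -3.88 for TIFY9, -3.83 for 41kDa and -3.52 for LOB15. LOB15 also rose in the ovary, from 5 and 7.4 FPKM to 13.6 and 20.2 FPKM, by less than in the leaf.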

How the results depend on the processing

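The counts of 527 higher and 203 lower genes stayed within 1.5 times with a pseudocount of 0.1 or 5 FPKM, with the expression filter dropped or raised to 5 FPKM, with quantile or upper quartile scaling and with eBayes without trend, at 456 to 576 higher and 169 to 219 lower. With the 202 genes at 0 in a condition left out they were 311 and 57, beside 447 and 94 for the remaining genes in the main fit. With the replicate number as a block they were 230 and 121, and in a fit with crossed numbers, added after seeing the data, 425 and 186. Same-numbered libraries did not deviate together (r = -0.175 across genes), so the numbers were not taken as pairs. Without one library the counts ran from 0 to 1509 higher and from 0 to 479 lower. Every fit without one leaf library, control or drought, left 1 residual degree of freedom, as did the block fit. In the fits without one library, the lone library is taken to vary like the other condition's. The 476 genes that differ between tissues ran from 418 to 455 without one leaf library and from 332 to 483 under the other alternatives. Of 81 called genes followed singly (77 with a symbol and 4 IDs without one), 36 kept their call with the block. Among the 62 of them not at 0 in a condition, 18 kept it with the block. Fewer of the 81 kept it without control 2 than without control 1, and none changed direction in any of these fits. f3h, not called, took the value 1.37 without control 1 and -1.60 without control 2. Unknown depth limits genes at low FPKM.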
